A study of Mus musculus with 6 samples.

Results

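The genes described here encode splicing factors of the SR, hnRNP and snRNP families. They were taken from the count table by name, as every protein_coding gene whose symbol starts with Srsf, Hnrnp, Sf3a, Sf3b or Snrp. This gave 52 of the 18828 genes in the table: 11 Srsf, 20 Hnrnp, 3 Sf3a, 6 Sf3b and 12 Snrp genes. No count entered that choice, but the families were proposed with results of this same comparison known, so counts over the families are a description and are given no test. The RNA came from wild-type T cells isolated from spleens of FVB mice, an inbred strain, and stimulated with beads coated with anti-CD3 and anti-CD28 antibodies. From the start of stimulation, the treated cells received 50 µM urolithin A for 48 h, and the control cells received DMSO, its solvent, for the same time. There were 3 libraries per group, with the letters a, b and c. All 6 therefore come from stimulated cells, at 1 dose and 1 time, without unstimulated cells for comparison.

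Splicing removes introns from pre-mRNA in the spliceosome, which is built from small nuclear RNAs bound by proteins. Each of the major snRNPs except U6 carries a ring of Sm proteins, encoded by Snrp genes, and the U2 snRNP also holds the SF3a and SF3b complexes, which place it on the branch site. SR proteins mostly bind exons and promote their use, whereas hnRNP proteins coat nascent RNA and often act in the opposite sense. T cells change exon use when they are activated, with CD45 (Ptprc) the classic case, and hnRNP L and hnRNP LL are known for their role there.

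All 52 genes passed the filter on low counts and were tested. In urolithin A-treated cells 16 of them (30.8%) fell and 0 rose, at an adjusted p under 0.05 in limma voom with Benjamini-Hochberg adjustment over all 14444 genes tested. In the same fit 16.0% of all genes tested fell and 17.7% rose, 33.7% in all. Among protein_coding genes tested the shares were 18.2% lower and 19.6% higher, 37.8% in all. On the log2 scale the median fold change was -0.15 for the 52 genes, against 0.01 for all genes tested. Of the 52 genes, 92.3% lay below 0, against 49.4% of all genes tested, and under scaling to total counts the shares were 75.0% and 39.3%. The changes were small: the 16 log2 fold changes ran from -0.60 to -0.19, with a median of -0.36. Summed over the 52 genes, the level was 12202, 12524 and 12267 counts per 1e6 (CPM) in libraries a to c with urolithin A, against 13547, 14408 and 14139 CPM in libraries a to c with DMSO. Under the trimmed-mean scaling used here the groups did not overlap. That separation rests on the scaling factor of DMSO library b, 0.8325, against 1.008 to 1.048 for the other libraries. A lower level in bulk RNA does not tell fewer cells with the transcript from less transcript per cell.

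**Figure D1:**
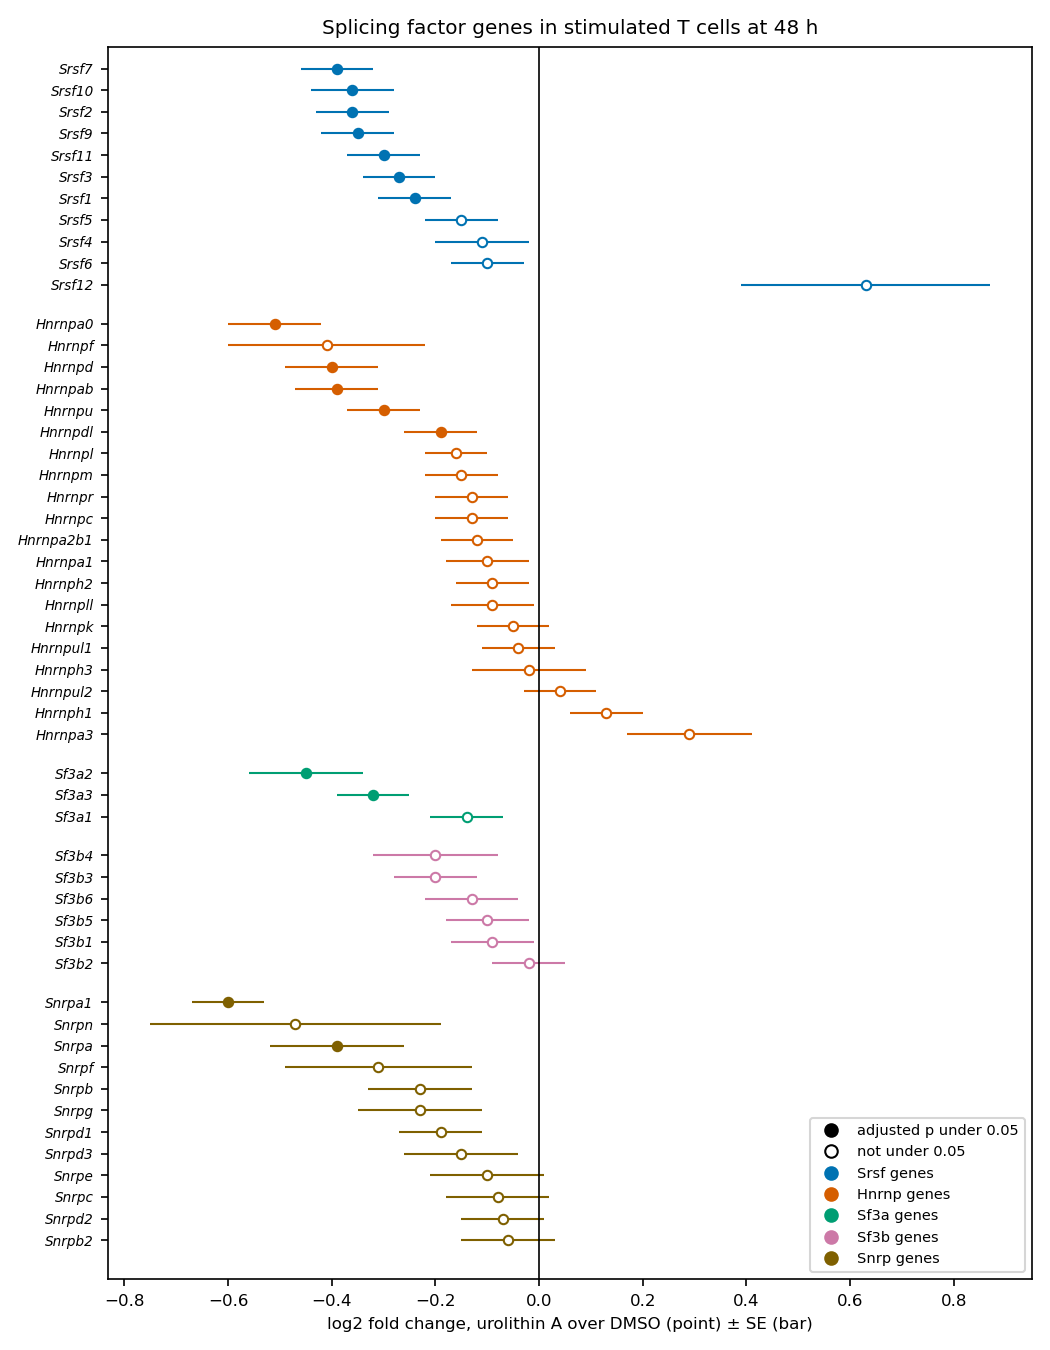
Log2 fold change, urolithin A over DMSO, of the 52 splicing factor genes on the horizontal axis, grouped by symbol prefix, with bars for the standard error of the fit and filled points for genes with an adjusted p under 0.05. The 16 filled points all lie left of 0, from -0.60 for Snrpa1 to -0.19 for Hnrnpdl, while no Sf3b gene is filled.

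These counts depend on how the libraries are scaled. Counts of Rn18s, the 18S ribosomal RNA, made up 3.97% of urolithin A library a and 17.6% of DMSO library b, but 0.0687% to 0.887% in the other 4 libraries. When libraries were scaled to their total counts, in which this RNA takes part, only Snrpa1 and Hnrnpa0 were called lower, which is 3.85% of the 52 genes against 6.45% of all genes tested, so the share was no longer above the background. The median over all genes moved to 0.10. The median of the 52 genes was then -0.06, so the distance between the medians was -0.15, as against -0.16 with the trimmed-mean scaling. Over all genes, 70.6% of the calls were then higher, against 52.6% with the trimmed-mean scaling. When ribosomal RNA genes were taken out before scaling to total counts, an alternative chosen after the data had been seen, 15 of the 52 genes (28.8%) were called lower, against 14.8% of all genes tested. With urolithin A library a and DMSO library b both left out, 5 of the 52 genes were called lower: Snrpa1, Hnrnpa0, Srsf7, Srsf2 and Hnrnpab. This is 9.62% of the 52, near the 8.43% of all genes tested that were called lower in that fit. Nothing in the labels ties a letter to its own animal or culture. The p-values then reflect only how far these libraries vary, and that variation may be technical.

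**Figure D2:**
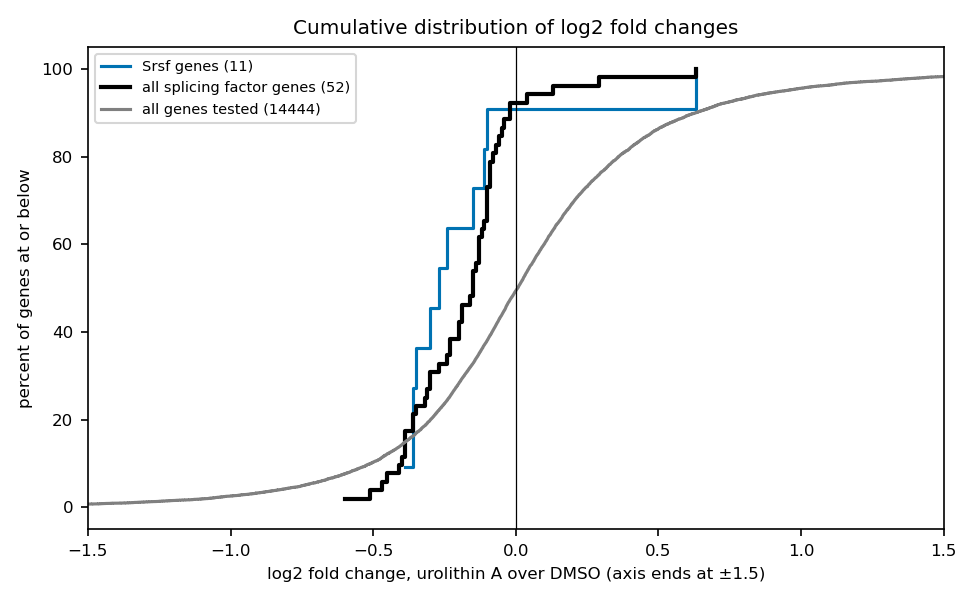
Distribution of log2 fold changes, urolithin A over DMSO, for the 52 splicing factor genes and for the 14444 genes tested. The splicing factor genes are shifted to the left, with a median of -0.15 against 0.01.

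The SR proteins had the most genes called, with 7 of 11 lower (63.6%, against 16.0% of all genes tested) and a median of -0.27 on the log2 scale. None of the 11 was called under scaling to total counts. With urolithin A library a and DMSO library b left out, only Srsf7 and Srsf2 of the 11 were called. Summed over the 11 genes, the level averaged 2940 ± 116 CPM in urolithin A-treated cells and 3492 ± 99.0 CPM in DMSO-treated cells (SD, n = 3 each). Srsf7, which binds RNA through a zinc knuckle beside its RNA recognition motif and serves as an adaptor in mRNA export, had 244, 267 and 252 CPM in libraries a to c with urolithin A, against 323, 336 and 338 CPM in libraries a to c with DMSO. The highest urolithin A library lay well below the lowest DMSO library. Its log2 fold change was -0.39 ± 0.07 (SE), with an adjusted p of 4.93e-04 in limma voom. It lies on chromosome 17, strand -, at 80507509 to 80514736 in the coordinates of the table.

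Srsf2, also called SC35, is a founding member of the family and marks nuclear speckles. It had 329.8, 350.5 and 306 CPM in the urolithin A libraries, against 416, 437 and 410.3 CPM in the DMSO libraries. Again the groups were apart, and the log2 fold change was -0.36 ± 0.07 (SE), adjusted p 0.00132. Srsf9, whose protein is also known as SRp30c, was nearly level within each group, at 84.8, 80.0 and 83.9 CPM with urolithin A and 105, 111 and 102 CPM with DMSO. The log2 fold change of Srsf9 was -0.35 ± 0.07 (SE), adjusted p 0.00180.

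Srsf3, the smallest SR protein and, like Srsf7, an export adaptor, also fell. It had 259, 292 and 260.1 CPM in urolithin A libraries and 316, 324 and 336 CPM in DMSO libraries, a log2 fold change of -0.27 ± 0.07 (SE) with an adjusted p of 0.00929. Srsf1 was the most abundant SR transcript by CPM, which is not corrected for length, and encodes the factor first purified as ASF/SF2. Its level was 871, 900.4 and 862 CPM with urolithin A and 971, 1064 and 1076 CPM with DMSO. The log2 fold change of Srsf1 was -0.24 ± 0.07 (SE), adjusted p 0.0120, and without DMSO library c the adjusted p was 0.0697. Srsf10, which represses splicing in its dephosphorylated form, and Srsf11 fell as well, with log2 fold changes of -0.36 and -0.30.

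The other 4 SR genes were not called. Srsf5, Srsf4 and Srsf6 had log2 fold changes of -0.15, -0.11 and -0.10, with adjusted p from 0.115 to 0.378. With the GC trend described below taken out, Srsf5 and Srsf6 were called lower, with adjusted p of 0.00882 and 0.0244. Srsf12, the scarcest of the family, was the single SR gene above 0. It had 2.81, 2.32 and 2.34 CPM with urolithin A and 1.39, 2.02 and 1.54 CPM with DMSO, a log2 fold change of 0.63 ± 0.24 (SE) and an adjusted p of 0.0581. The ratio of Srsf7 to Srsf6 counts within a library does not depend on the scaling. It was 0.524, 0.551 and 0.556 in libraries a to c with urolithin A, against 0.664, 0.646 and 0.684 in libraries a to c with DMSO. Srsf7 was therefore lower relative to Srsf6 in each urolithin A library than in any DMSO library. This pair, like the other ratios below, was chosen after the values had been seen and is a description.

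Most SR genes are known to limit their own level through alternative exons that send the transcript to nonsense-mediated decay. In the GENCODE M21 annotation, 9 of the 11 Srsf genes carry a transcript of the nonsense-mediated decay class. Over all 52 genes it was 24 (46.2%), and 11 of the 16 that fell, against 29.5% of the 11811 protein_coding genes tested that the annotation holds. Counts per gene do not separate such transcripts from the coding ones, so their share in each group was not measured.

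**Figure D3:**
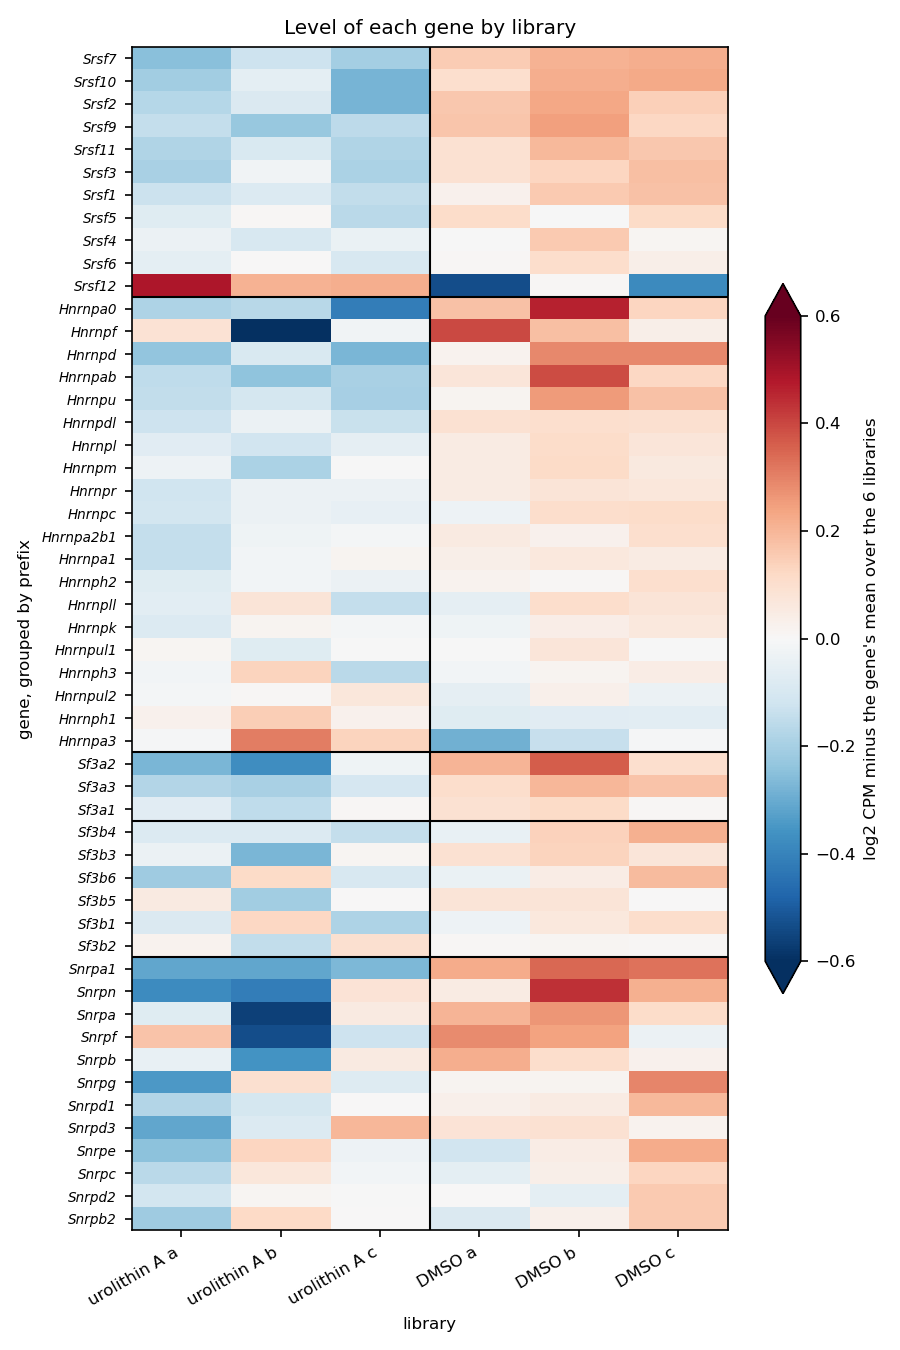
Level of each of the 52 splicing factor genes in the 6 libraries, as log2 CPM minus the mean of the gene over the 6 libraries, with urolithin A libraries a to c left of DMSO libraries a to c and colours cut at 0.6 on either side. Genes that fell are mostly blue in the urolithin A libraries and mostly red in the DMSO libraries, while urolithin A library b stands lowest for Hnrnpf, Snrpa, Snrpb and Snrpf.

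Of the hnRNP genes 5 of 20 fell (25.0%, against 16.0% of all genes tested) and 0 rose, and the median was -0.12 on the log2 scale. The summed level was 6179 ± 75.1 CPM in urolithin A-treated cells and 6980 ± 293 CPM in DMSO-treated cells (SD, n = 3 each). The genes that fell were Hnrnpa0, Hnrnpd, Hnrnpab, Hnrnpu and Hnrnpdl. Of these, Hnrnpd, Hnrnpab and Hnrnpdl encode closely related proteins. Hnrnpa0, which binds AU-rich elements in cytokine mRNAs, had 280.5, 284 and 239 CPM in urolithin A libraries and 359.6, 439 and 349 CPM in DMSO libraries. Its log2 fold change was -0.51 ± 0.09 (SE), adjusted p 9.82e-04, and it was also called under scaling to total counts. No other hnRNP gene was called under that scaling. With urolithin A library a and DMSO library b left out, only Hnrnpa0 and Hnrnpab of the hnRNP genes were called.

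Hnrnpd encodes AUF1, a protein that binds AU-rich elements and promotes mRNA decay. Its level was 68.5, 75.6 and 66.6 CPM with urolithin A, against 81.9, 98.6 and 98.6 CPM with DMSO. DMSO library a was the nearest to the treated ones but still above them, and the log2 fold change was -0.40 ± 0.09 (SE), adjusted p 0.00303. Hnrnpab, an RNA-binding protein of the same subfamily, had 370.2, 348 and 359 CPM with urolithin A and 433, 539.7 and 449 CPM with DMSO. The high value in DMSO library b widened the spread of that group, and the log2 fold change was -0.39 ± 0.08 (SE), adjusted p 0.00194.

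Hnrnpu encodes SAF-A, which also binds chromatin and is among the most abundant of these transcripts by CPM. It had 1224, 1263 and 1183 CPM with urolithin A and 1372, 1620 and 1534 CPM with DMSO, a log2 fold change of -0.30 ± 0.07 (SE), adjusted p 0.00510. Hnrnpdl, the paralog of Hnrnpd, was at the edge of the threshold, with 296, 315 and 294 CPM in urolithin A libraries and 343, 346 and 345 CPM in DMSO libraries. The log2 fold change of Hnrnpdl was -0.19 ± 0.07 (SE), adjusted p 0.0341. Of the 6 fits that left out 1 library, 1 still called it, the fit without urolithin A library b, and the adjusted p ran from 0.00528 to 0.0989.

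Of the 6 hnRNP genes fixed by symbol, Hnrnpu was called and the other 5 were not. Hnrnpa1 and Hnrnpa2b1, which encode the core hnRNP A/B proteins, had log2 fold changes of -0.10 ± 0.08 and -0.12 ± 0.07 (SE), with adjusted p of 0.361 and 0.171. Hnrnpc, which binds uridine tracts, stood at -0.13 ± 0.07, adjusted p 0.176. With the GC trend described below taken out, Hnrnpc and Hnrnpa2b1 were called lower, with adjusted p of 0.0111 and 0.0154. Hnrnpk, which binds cytosine-rich RNA, averaged 553 ± 19.2 CPM with urolithin A and 572 ± 18.3 CPM with DMSO (SD, n = 3 each), and the groups overlapped. For Hnrnpll, the regulator of CD45 exons, the levels were 129, 142 and 122 CPM in urolithin A libraries and 129.8, 145 and 142 CPM in DMSO libraries. Its log2 fold change was -0.09 ± 0.08 (SE), adjusted p 0.436, and under scaling to total counts Hnrnpk and Hnrnpll stood at 0.04 and 0.00. Hnrnpl, its paralog, had 535, 518 and 539 CPM with urolithin A and 580.4, 605 and 590.2 CPM with DMSO. The groups were apart, but the adjusted p was 0.0678. Hnrnpm, Hnrnpr and Hnrnpul1 also lay below 0, at -0.15, -0.13 and -0.04.

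Above 0 stood 3 hnRNP genes, none of them called. Hnrnpul2 had a log2 fold change of 0.04, Hnrnph1 0.13 and Hnrnpa3 0.29. Hnrnph1, which binds guanine tracts, had 442, 481 and 442 CPM with urolithin A and 413, 414 and 415 CPM with DMSO, groups that did not overlap. Its paralogs Hnrnph2 and Hnrnph3 had log2 fold changes of -0.09 and -0.02. Hnrnpf, which binds the same tracts, had 36.0, 21.2 and 33.5 CPM with urolithin A, against 44.7, 38.5 and 34.8 CPM with DMSO, and its adjusted p of 0.135 went with a standard error of 0.19. Over the 6 fits that left out 1 library its log2 fold change ran from -0.59 to -0.16 and the adjusted p from 0.0247 to 0.301, and it was called only without urolithin A library a.

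In the U2 snRNP, the SF3a complex and the SF3b complex gave different counts: 2 of 3 Sf3a genes fell, whereas 0 of 6 Sf3b genes did. That difference between the complexes was not tested. No Sf3a gene was called under scaling to total counts, or with urolithin A library a and DMSO library b left out. With the GC trend described below taken out, Sf3b1, Sf3b3 and Sf3b6 were called lower too, with adjusted p of 0.0194, 0.0172 and 0.0285. In that fit Sf3a1 was called as well, adjusted p 0.0346. Sf3b6 was also called with library quality weights, adjusted p 0.0306. Sf3a3, which encodes the SF3a60 subunit, had 136, 134 and 143 CPM in urolithin A libraries and 165, 176 and 173 CPM in DMSO libraries. The groups lay apart by more than the spread in either, and the log2 fold change was -0.32 ± 0.07 (SE), adjusted p 0.00266. Sf3a2, which encodes the SF3a66 subunit, had 18.5, 17.3 and 22.0 CPM with urolithin A and 25.8, 28.8 and 24.0 CPM with DMSO. For Sf3a2 the log2 fold change was -0.45 ± 0.11 (SE), adjusted p 0.00617. Its coding transcript has 62.2% GC, and with the GC trend taken out the log2 fold change was -0.25, adjusted p 0.0392. The opposite-strand gene Plekhj1 overlaps Sf3a2, with counts 1.94 times those of Sf3a2 in urolithin A libraries and 1.92 times in DMSO libraries. The sources used here do not state whether the counting used strand, so reads of the overlap could be shared. By the coordinates of the table, 22 of the 52 genes and 8 of the 16 called ones overlap another gene, and among the other called ones the overlapping gene reached at most 0.111 times the counts (Phykpl beside Hnrnpab). Sf3a1 had a log2 fold change of -0.14 and an adjusted p of 0.146.

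Sf3b1 encodes the large subunit that clasps the branch site helix and is recurrently mutated in blood cancers. Its level was 896, 1038 and 838 CPM with urolithin A and 933, 995 and 1025 CPM with DMSO. The groups overlapped, and the log2 fold change was -0.09 ± 0.08 (SE), adjusted p 0.390. The 6 Sf3b genes had a median of -0.12 on the log2 scale and summed to 1965 ± 32.3 CPM with urolithin A and 2103 ± 57.2 CPM with DMSO (SD, n = 3 each). Sf3b3, the scaffold of SF3b, stood at -0.20 with an adjusted p of 0.0655 and was called without urolithin A library c. Sf3b4, Sf3b5 and Sf3b2, further subunits of the complex, had log2 fold changes of -0.20, -0.10 and -0.02. Sf3b1 and Sf3b6, the protein at the branch adenosine, were called without urolithin A library b. The ratio of Sf3a3 to Sf3b3 counts was 0.350, 0.407 and 0.355 in libraries a to c with urolithin A, against 0.388, 0.403 and 0.413 in libraries a to c with DMSO, so the groups overlapped.

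Snrpa1 had the smallest adjusted p of the 52 genes and the lowest log2 fold change. It encodes the A-prime protein of the U2 snRNP, a leucine-rich repeat protein that binds the U2 snRNA together with the product of Snrpb2. Snrpa1 had 83.6, 83.6 and 86.2 CPM in libraries a to c with urolithin A, against 121, 132 and 130.1 CPM in libraries a to c with DMSO. The means were 84.4 ± 1.52 CPM with urolithin A and 128 ± 5.69 CPM with DMSO (SD, n = 3 each), a level 33.9% lower. The log2 fold change was -0.60 ± 0.07 (SE), adjusted p 1.82e-05. It was called in every fit tried, including scaling to total counts, where its log2 fold change was -0.51. Snrpa1 lies on chromosome 7, strand +, at 65708751 to 65724335 in the coordinates of the table.

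Its partner Snrpb2 had 92.1, 116 and 107 CPM with urolithin A and 100.5, 109 and 119 CPM with DMSO. The groups overlapped, and the log2 fold change was -0.06 ± 0.09 (SE), adjusted p 0.632. Within a library, the ratio of Snrpa1 to Snrpb2 counts was 0.908, 0.720 and 0.806 in libraries a to c with urolithin A, against 1.21, 1.21 and 1.09 in libraries a to c with DMSO. Every urolithin A library lay below every DMSO library, without any scaling between libraries. The coding transcripts differ in GC content, at 50.4% for Snrpa1 and 39.4% for Snrpb2. This ratio is therefore not free of the GC differences between libraries described below. With the GC trend taken out, Snrpb2 was called lower, with a log2 fold change of -0.18 and an adjusted p of 0.0424, while Snrpa1 stood at -0.61.

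Snrpa, which encodes the A protein of the U1 snRNP, also fell. It had 33.5, 23.9 and 36.6 CPM with urolithin A and 40.6, 42.4 and 38.1 CPM with DMSO, a log2 fold change of -0.39 ± 0.13 (SE), adjusted p 0.0345. Urolithin A library b was the low one: without it the log2 fold change was -0.20 and the adjusted p 0.0707. Without DMSO library a or b the adjusted p was 0.0980 or 0.104. Snrpc, which encodes the C protein of the same particle, stood at -0.08 and was not called.

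None of the Sm ring genes was called with all 6 libraries, no library quality weights and no correction for GC. Snrpb, whose product SmB/B′ is the largest ring protein, had 394, 317 and 421 CPM with urolithin A and 472, 436 and 413 CPM with DMSO, and the groups overlapped. Its log2 fold change was -0.23 ± 0.10 (SE), adjusted p 0.0792. It was -0.31 and called without urolithin A library c, and -0.11 without urolithin A library b. Snrpd1, another ring subunit, had 82.1, 86.3 and 93.0 CPM with urolithin A and 94.7, 96.1 and 106 CPM with DMSO, with an adjusted p of 0.0818. It was called with library quality weights and with the GC trend taken out, with adjusted p of 0.0304 and 0.00741. The other ring genes Snrpd2, Snrpd3, Snrpe, Snrpf and Snrpg had log2 fold changes from -0.31 to -0.07, and Snrpg was called without urolithin A library b, with an adjusted p of 0.00963. It was also called with library quality weights and with the GC trend taken out, with adjusted p of 0.0163 and 0.0345. Snrpn, the imprinted paralog of Snrpb that is best known from neurons, was close to the floor, at 0.989, 0.964 and 1.36 CPM with urolithin A and 1.33, 1.74 and 1.49 CPM with DMSO. It shares its strand and place with Gm38393, so its reads are uncertain. The 12 Snrp genes had a median log2 fold change of -0.21, with 2 lower and 0 higher. The 2 are 16.7% of the family, close to the 16.0% of all genes tested.

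Groups can lie apart without a gene being called. In 29 of the 52 genes (55.8%) every urolithin A library lay below every DMSO library, and in 3 every one lay above. Over all genes tested 22.7% lay apart with urolithin A lower and 24.1% with urolithin A higher, and over protein_coding genes 25.0% and 26.1%. The 29 were 9 Srsf, 12 Hnrnp, 3 Sf3a, 2 Sf3b and 3 Snrp genes, and all 16 called genes are among them. These counts hold for the trimmed-mean scaling and were not made under scaling to total counts.

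The libraries also differed in how a gene's level went with the GC content of its coding transcript, in both groups. Over 9518 genes with a mean of at least 5 CPM, the deviation of a library from the mean of its own group was correlated with GC. The correlations were 0.44, -0.63 and 0.44 in libraries a to c with urolithin A, and 0.51, 0.04 and -0.50 in libraries a to c with DMSO. For 50 splicing factor genes the values were 0.30, -0.48 and 0.41 with urolithin A and 0.26, 0.33 and -0.46 with DMSO. These correlations are across genes of 1 library, which share its depth. Deviations from a group's own mean cancel within the group, so both signs had to occur in each group and say nothing of the treatment. The log2 fold change correlated with GC at -0.18 over all these genes and at -0.28 over the 50. In an alternative chosen after the data had been seen, a smooth GC trend was taken out of each library. That trend was fitted to deviations from the gene's mean over all 6 libraries, not over its own group. A GC trend that differs between the groups was thus taken out too, and the fit made no allowance for the smoothing. With the trend taken out, 30 of the 52 genes were called lower and 1, Srsf12, higher, and the median was -0.19. That is 57.7% of the 52 lower, against 23.9% of the 11817 genes with a GC value.

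**Figure D4:**
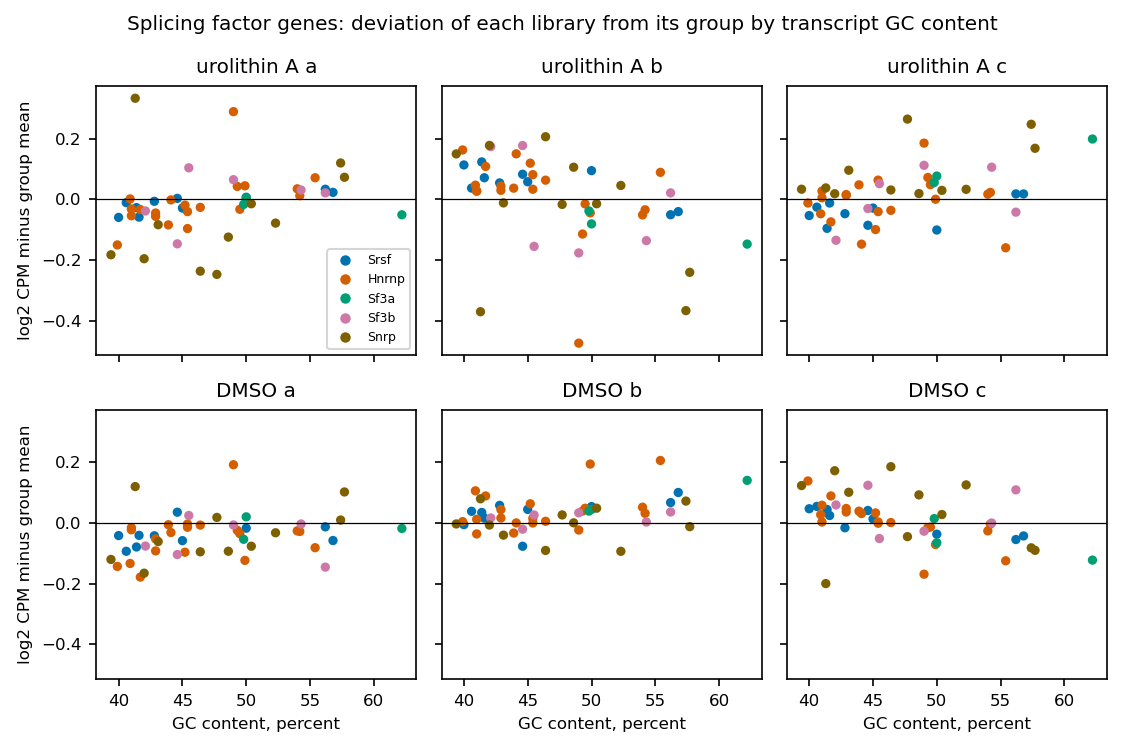
Log2 deviation of each splicing factor gene from the mean of the library's own group, against the GC content of its coding transcript, with 1 panel per library. Shown are the 50 splicing factor genes with at least 5 CPM on average. The correlation is below 0 in urolithin A library b (-0.48) and DMSO library c (-0.46).

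Genes that make, load or regulate these factors were listed from knowledge of the pathway. Of the 22 of them named by rule, 10 lost their call under scaling to total counts: Ccna2, Ddx42, Ddx46, Lsm1, Ppil1, Ppp1r8, Prpf19, Snrnp27, Syncrip and Upf1. When ribosomal RNA genes were taken out before that scaling, all 22 were called. With urolithin A library a and DMSO library b left out, 10 of the 22 lost their call: Ccna2, Ddx42, Lsm1, Ppil1, Ppp1r8, Prpf18, Prpf19, Snrnp27, Upf3a and Zrsr1. Of the genes for snRNP assembly, 10 of 15 tested fell (66.7%, against 16.0% of all genes tested) and 0 rose, with a median log2 fold change of -0.30. Prmt5, the methyltransferase that modifies Sm proteins before they are loaded, had 128, 110.0 and 135 CPM with urolithin A and 176, 192 and 181 CPM with DMSO. Its log2 fold change was -0.57 ± 0.08 (SE), adjusted p 1.11e-04. Its partners Wdr77 and Clns1a fell with log2 fold changes of -0.47 and -0.33. Of the SMN complex, which puts the Sm ring on the snRNA, Gemin2 fell by 0.50 and Ddx20, also called Gemin3, fell by 0.47 on the log2 scale. Wdr77, Clns1a and Gemin2 were chosen for mention after their values were seen. Under scaling to total counts 3 of the 15 were called lower, and 4 with urolithin A library a and DMSO library b left out.

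Of the genes for SR protein kinases, phosphatase regulators and import, 3 of 11 fell (27.3%, against 16.0% of all genes tested) and 0 rose. Under scaling to total counts 1 of the 11 was lower, and 1 with urolithin A library a and DMSO library b left out. Srpk1, the kinase that phosphorylates SR proteins in the cytoplasm, had 296, 323 and 300.1 CPM with urolithin A and 426, 444 and 454 CPM with DMSO. The groups were far apart relative to their spread, and the log2 fold change was -0.53 ± 0.07 (SE), adjusted p 3.47e-05. Ppp1r8, the nuclear inhibitor of protein phosphatase 1, had a log2 fold change of -0.29, adjusted p 0.00821. Of 34 other regulators of alternative splicing that were tested, 10 fell (29.4%) and 4 rose. Scaling to total counts left 2 lower and 2 higher. With urolithin A library a and DMSO library b left out, 5 were lower and 1 higher. Tra2a, an SR-like protein that binds GAA-rich exons, is among the 10. It had 111, 116 and 105 CPM with urolithin A and 154, 166 and 173 CPM with DMSO, a log2 fold change of -0.57 ± 0.07 (SE), adjusted p 4.37e-05. Syncrip, an hnRNP protein named outside the Hnrnp series, fell by 0.42. Celf2, which is known from human T cells to regulate exon use on activation, rose, with 333, 388 and 311 CPM with urolithin A and 246, 271 and 270.5 CPM with DMSO. For Celf2 the log2 fold change was 0.39 ± 0.08 (SE), adjusted p 0.00250.

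Within the spliceosome, 9 of 22 genes for U5, tri-snRNP, U1-70K and minor spliceosome proteins fell (40.9%) and 0 rose. Of 22 genes for U2AF and branch site recognition 10 fell (45.5%) while 1 rose. Over all genes tested 16.0% fell and 17.7% rose. Scaling to total counts left 1 lower in the U5 list and 0 in the U2AF list. With urolithin A library a and DMSO library b left out, 2 were lower in each. Over all genes 6.45% and 8.43% were lower in these 2 fits. Usp39, needed to recruit the tri-snRNP, had a log2 fold change of -0.51 and an adjusted p of 1.01e-04. Snrnp27, a tri-snRNP protein, had a log2 fold change of -0.42 and an adjusted p of 0.00435. Ddx46, the helicase that remodels the U2 snRNP at the branch site, and Ddx42, which binds SF3B1, had log2 fold changes of -0.38 and -0.31. Zrsr1, the 1 that rose, had a log2 fold change of 0.50 ± 0.12 (SE), adjusted p 0.00397, and is a retrogene in an intron of Commd1, so its reads are uncertain. Of 29 genes of the Prp19 complex and the catalytic spliceosome 4 fell (13.8%, below the share over all genes) and 3 rose, with a median of -0.00. Scaling to total counts left 0 lower and 2 higher, and leaving out those 2 libraries left 0 of either. Prpf19, the ubiquitin ligase that gives the Prp19 complex its name, had a log2 fold change of -0.33. For Prpf19 the value was -0.22 without urolithin A library b, and the call was lost without DMSO library a, adjusted p 0.0509. Ppil1, a cyclophilin of the active spliceosome, had a log2 fold change of -0.34, and Prpf18, a factor of the second catalytic step, had 0.32.

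Of 8 genes of the LSm ring, which binds U6 RNA in the nucleus and decapping targets in the cytoplasm, 2 fell (25.0%). Lsm7, a subunit of both rings, had 3.02, 2.83 and 3.47 CPM with urolithin A and 6.61, 5.91 and 5.94 CPM with DMSO, a mean 49.9% lower, adjusted p 4.58e-04 in limma voom. Lsm1, the subunit of the cytoplasmic ring, had a log2 fold change of -0.34. Of 24 genes for the exon junction complex, mRNA export and nonsense-mediated decay 6 fell (25.0%) and 2 rose. Over all genes tested 16.0% fell and 17.7% rose. Scaling to total counts left 1 lower in the LSm list, and 1 lower and 1 higher among the 24. With urolithin A library a and DMSO library b left out, 1 and 3 were lower. Alyref, the export adaptor that SR proteins act beside, had a log2 fold change of -0.45 and an adjusted p of 1.08e-04. Upf1, the helicase of nonsense-mediated decay, fell by 0.42, and its cofactor Upf3a rose by 0.30 on the log2 scale. The call for Upf3a was lost without DMSO library a or b, with adjusted p of 0.0659 and 0.0642.

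**Figure D5:**
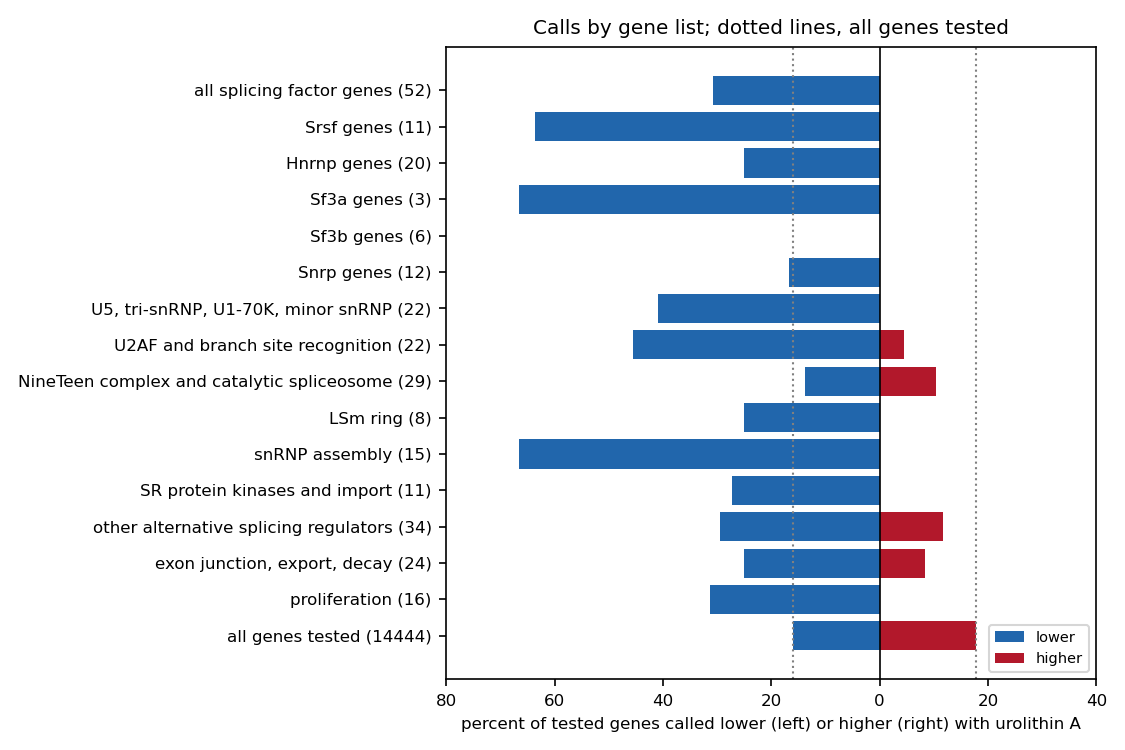
Percent of tested genes called lower (left) and higher (right) with urolithin A in each splicing factor family and in each list of related genes. Dotted lines mark the shares over all genes tested. The snRNP assembly list has 10 of 15 tested genes lower, the Srsf family 7 of 11, and the Sf3b family 0 of 6. Over all genes tested 16.0% were called lower.

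Genes of growth and of other cell types are given beside these results. Of 16 proliferation genes 5 fell (31.2%, against 16.0% of all genes tested) and 0 rose. Scaling to total counts left 1 of the 16 lower, as did leaving out urolithin A library a and DMSO library b. Myc, a transcription factor known to raise splicing factor genes in lymphoma cells, had 151, 110.1 and 149.7 CPM with urolithin A and 217, 217 and 199 CPM with DMSO, a log2 fold change of -0.64 ± 0.11 (SE), adjusted p 6.35e-04. Ccna2, cyclin A, had a log2 fold change of -0.30, adjusted p 0.00530. The 10 T cell markers, Cd3 genes among them, summed to 2970 to 3188 CPM with urolithin A and 2962 to 3106 CPM with DMSO, with 2 called higher and 1 lower, so the T cell label held in both groups. The 6 B cell markers summed to 206 to 249 CPM with urolithin A and 162 to 179 CPM with DMSO, with 3 of 6 called higher. The 4 natural killer cell markers summed to 99.5 to 113 CPM with urolithin A and 82.3 to 84.1 CPM with DMSO, with 1 called higher. Macrophage markers summed to 5.93 to 6.92 CPM with urolithin A and 3.90 to 5.45 CPM with DMSO. Dendritic cell markers summed to 4.45 to 6.77 CPM with urolithin A and 3.39 to 3.90 CPM with DMSO, and erythroid markers to 3.80 to 4.45 CPM with urolithin A and 2.23 to 2.57 CPM with DMSO. In these 3 lists the groups lay apart, with 1 dendritic cell and 1 erythroid gene called higher. Most of the macrophage sum was Cd68, at 5.15 to 5.61 CPM with urolithin A and 3.27 to 4.76 CPM with DMSO. Zbtb46 made up most of the dendritic cell sum, at 4.37 to 6.35 and 2.92 to 3.76 CPM. The macrophage gene Adgre1 went the other way, at 0.0520 to 0.170 CPM with urolithin A and 0.290 to 0.348 CPM with DMSO. Such sums do not tell how many of these cells were present. Platelet markers summed to 4.87 to 5.73 CPM with urolithin A and 5.11 to 6.52 CPM with DMSO, the neutrophil markers to at most 0.156 CPM with urolithin A and 0.212 CPM with DMSO, and the neutrophil gene S100a9 was at 0. The part of these cells and of proliferation in the results above was not tested.

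The start regions of these genes were compared by sequence. RefSeq windows from 250 bases before to 50 bases after the gene start, on build GRCm38.p6, were matched by symbol for 46 of the 52 genes, all 16 called genes among them. An ETS core, CCGGAAG on either strand, stood in 16 of the 46 windows (34.8%), against 20.8% of the 10082 tested genes with a window. The E-box CACGTG, the site that Myc and Max bind, stood in 6 (13.0%), against 11.9%. The CCAAT box, CCAAT on either strand, stood in 23 (50.0%), against 43.2%, and the TATA box TATAAA in 7 (15.2%), against 8.9%. Among the 16 called genes, the counts were 5 with the ETS core, 2 with the E-box, 6 with the CCAAT box and 4 with the TATA box. A match of letters is a description and not a site in use. The windows of Srsf7, Srsf2 and Hnrnpd are shown because these genes fell and between them hold all 4 motifs. The sequence is in lower case with matches in capitals, 5′ to 3′ on the strand of the gene. They are Srsf7 at chr17:80207256-80207555, strand -, with an ETS core, Srsf2 at chr11:116853045-116853344, strand -, with a CCAAT box and a TATA box, and Hnrnpd at chr5:99978889-99979188, strand -, with an ETS core read on the other strand and an E-box.
Srsf7: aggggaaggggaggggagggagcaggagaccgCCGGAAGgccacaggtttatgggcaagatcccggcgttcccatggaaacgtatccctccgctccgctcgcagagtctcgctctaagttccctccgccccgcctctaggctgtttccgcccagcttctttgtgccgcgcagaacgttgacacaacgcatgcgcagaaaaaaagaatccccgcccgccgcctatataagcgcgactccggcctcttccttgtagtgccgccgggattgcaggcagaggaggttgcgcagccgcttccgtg
Srsf2: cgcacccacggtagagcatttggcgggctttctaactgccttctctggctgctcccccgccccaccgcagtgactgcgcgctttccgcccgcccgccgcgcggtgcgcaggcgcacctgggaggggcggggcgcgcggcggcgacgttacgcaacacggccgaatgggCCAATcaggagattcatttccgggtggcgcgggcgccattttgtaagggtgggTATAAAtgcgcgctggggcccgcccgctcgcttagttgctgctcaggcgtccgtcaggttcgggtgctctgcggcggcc
Hnrnpd: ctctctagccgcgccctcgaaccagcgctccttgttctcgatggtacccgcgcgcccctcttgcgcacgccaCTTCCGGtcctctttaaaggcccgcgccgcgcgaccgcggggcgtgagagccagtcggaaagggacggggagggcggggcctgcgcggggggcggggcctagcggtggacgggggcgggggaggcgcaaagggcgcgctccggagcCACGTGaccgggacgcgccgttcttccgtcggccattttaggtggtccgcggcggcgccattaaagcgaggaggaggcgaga
None of the matches in these windows overlaps another. In the Srsf2 window the TATA box starts 29 bases and the CCAAT box 82 bases before the gene start. The E-box of Hnrnpd starts 32 bases before it, and the ETS cores of Srsf7 and Hnrnpd lie farther out, at 218 and 178 bases.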

How the data were processed

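RNA sequencing of stimulated spleen T cells was compared between 3 urolithin A and 3 DMSO libraries. Per the submitters' processing notes, bcl2fastq 2.20.0.422, FastQC, STAR 2.5.2a, the mm10 build and DESeq2 were used. Per the labels, 200 ng of total RNA went into each stranded mRNA library. The counting program, its strand setting and the annotation are not stated in the sources at hand. The deposited table writes whole numbers with a decimal comma and names no unit, so its unit was recorded as other. Read that way, the deposited values of the 6 columns used hold 0 non-whole values and were taken as counts of reads. The 2 deposited files are identical, and 3 columns that match no labelled sample were left out. Only 2 of the 52 genes have the same start and end in GENCODE M21 of mm10, so coordinates stand as in the table, whose build is not named. Total counts ran from 12738059 to 19081219 per library. Libraries of a group differed by more than counting error, with a chi-square per degree of freedom from 9.04 to 27.4.

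Tested were the 14444 genes that reached the equivalent of 10 counts at the median library size in 3 or more libraries and 15 counts in total. Negative binomial models were not used, because the recorded unit is not counts. Libraries were scaled by the trimmed mean of M values (30% of M, 5% of A). CPM are counts per 1e6 of the tested genes' total times the factor. Log2 fold changes, SE and p-values came from limma 3.58.1 voom (offset 0.5) with robust eBayes in R 4.3.3 and group as the only term, with Benjamini-Hochberg adjustment over all genes tested and a threshold of 0.05. The procedure was tested on simulated data. Of 100 genes changed 1.5-fold 70 were called, and of 100 changed 2-fold 84 were called. Unchanged genes made up 17 of the 171 calls, a larger share than the threshold of 0.05. The simulation changed far fewer genes than were called in the data and held no GC trend or Rn18s difference. All called splicing factor genes except Snrpa1 changed by less than 1.5-fold. The share of such changes that is recovered, and the share of false calls in the data, were therefore not measured. The members and the lists of related genes were chosen with earlier results of these data known. Full values are given for up to 3 called genes of each family with the smallest p, non-overlapping groups and a mean of at least 5 CPM, for 16 members fixed by symbol, and for the leading called genes of each related list (2 in the direction with more calls, 1 in the other). Other members are named so that each is accounted for, and values of some of them were picked after being seen. Alternatives were total-count and median-of-ratios scaling, no filter and one of 50 counts, limma trend on log2(CPM + 1) and log2(CPM + 0.1), library quality weights, a replicate block, ribosomal RNA genes taken out, each library left out, 2 libraries left out and, both chosen after the data had been seen, a GC trend taken out and total-count scaling without ribosomal RNA genes.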

Additional observations from a re-analysis of the deposited data

How the results depend on the processing

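The number of the 52 splicing factor genes called lower was 16, and it stayed at 16 with median-of-ratios scaling, without the filter on low counts, with the stricter filter, with limma trend at either added constant, and with ribosomal RNA genes taken out. Scaling to total counts gave 3169 calls over all genes, 2 of the 52 lower and a median of -0.06, and turned the sign of 9 of the 52, among them Hnrnpk at 0.04 and Hnrnpll at 0.00. The others were Hnrnph2, Hnrnph3, Hnrnpul1, Sf3b2, Snrpb2, Snrpc and Snrpd2, and none of the 9 was called under that scaling. With ribosomal RNA genes taken out first, scaling to total counts gave 4829 calls over all genes, 15 of the 52 lower and a median of -0.13. Library quality weights gave 5865 calls over all genes, with 22 of the 52 lower (42.3%, against 19.5% of all genes) and 1 higher. Leaving out urolithin A library a and DMSO library b together gave 2666 calls over all genes and 5 of the 52 lower. Taking out the GC trend gave 5652 calls over all genes and called 30 lower and 1 higher, with a median of -0.19. Leaving out 1 library at a time gave 3490 to 5274 calls over all genes, 14 to 19 of the 52 lower, 0 higher and a median from -0.18 to -0.14. The cause of the other differences was not tested.

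Libraries of the same letter were no more alike than others. The correlation of their deviations was 0.0935, -0.188 and -0.101 for a, b and c, against -0.258 to 0.316 between different letters. These deviations also went with GC content, so they cannot tell whether a letter marks a shared animal or culture. With the letter as a replicate block, 4496 genes were called over all genes and 16 of the 52 were lower, with a median of -0.15, Hnrnpf in place of Hnrnpdl. With 3 libraries a group, the fit says little of changes smaller than those called, and scarce genes such as Srsf12 and Snrpn had the largest standard errors of the 52.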
